A study of Mus musculus with 8 samples.

Results

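The keratins of the upper layers and papillae of the tongue examined here are Krt13, Krt4, Krt24, Krt36, Krt84, Krt76, Krt1, Krt10, Krt32 and Krt78, taken by symbol from all 8 libraries. They are 10 of the 32285 features counted, and the files held 53 keratin symbols in all. They were described in barcodes with at least 1 Epcam UMI (a unique molecular identifier, which marks 1 captured transcript) and 0 Ptprc UMIs, a gate for epithelial cells without the pan-leukocyte gene. The study's cell limits were 1000 to 5500 genes, no more than 30000 UMIs and a mitochondrial share of up to 7%, and within them the gate held 10343 of 42550 barcodes.

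The study asked how tongue epithelium changes once oncogenic programmes are switched on in its basal cells. Tongue epithelium of mice aged 8 to 16 weeks was taken 15 days after intralingual tamoxifen and the start of doxycycline chow, and 2 libraries were made per group. Group N carried Krt14-CreERT/LSL-rtTA, group E added tetON_E6-E7 (papillomavirus oncogenes), group Y added tetON_YAP1S127A (a constitutively active YAP1), and group EY carried both tetON transgenes. According to the study's methods, every group also carried an H2B-GFP reporter. The Krt14 promoter drives the recombinase in basal keratinocytes, and cells without recombination may be present in every library. N2 carries 2 animal numbers in its title and may be pooled.

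Keratins are intermediate filament proteins that assemble only as pairs of a type I and a type II chain. Basal keratinocytes use KRT5 and KRT14, and cells that leave the basal layer switch to other pairs according to tissue. KRT4 and KRT13 are the suprabasal pair of the soft lining of mouth and oesophagus, KRT1 and KRT10 are that of epidermis and other cornified surfaces, and hair-type keratins harden the filiform papillae, the spines on the upper face of the tongue.

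The 10 genes lie in the 2 keratin clusters of the mouse genome (mm10, all on the minus strand and all protein coding). The type I genes Krt24, Krt10, Krt32, Krt36 and Krt13 stand within 0.842 Mb of chromosome 11, from 99279959 to 100121566. The type II genes Krt84, Krt1, Krt76, Krt4 and Krt78 stand within 0.429 Mb of chromosome 15, from 101525026 to 101954287. Krt36 and Krt13 are close neighbours, since Krt36 ends at 100105626 and Krt13 begins at 100117327.

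The promoters of 4 of them are given here because the results turn on these genes. Krt36 and Krt84 sit on different chromosomes and were found in the same rare cells. Krt13 and Krt24 sit on the same chromosome and were found together no more often than their shares would give (ratio 0.869 to 0.979 over 9 settings). Each sequence is the 100 bases before the transcript start in RefSeq (GRCm38.p6, minus strand, 5′ to 3′), at chr11:100105627-100105726 for Krt36, chr15:101532821-101532920 for Krt84, chr11:100121567-100121666 for Krt13 and chr11:99285263-99285362 for Krt24. Capitals mark the TATAA or ATAAA nearest to the start.

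Krt36: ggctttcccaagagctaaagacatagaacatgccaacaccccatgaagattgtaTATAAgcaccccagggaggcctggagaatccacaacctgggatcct
Krt84: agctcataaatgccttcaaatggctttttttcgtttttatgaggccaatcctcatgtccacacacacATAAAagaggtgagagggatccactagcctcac
Krt13: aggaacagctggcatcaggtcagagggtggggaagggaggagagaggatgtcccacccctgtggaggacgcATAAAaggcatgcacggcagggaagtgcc
Krt24: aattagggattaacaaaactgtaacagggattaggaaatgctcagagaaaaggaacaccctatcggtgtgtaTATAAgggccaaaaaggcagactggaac

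RefSeq promoters at the annotated start were matched for 7 of the 10 genes, and all 7 held TATAA or ATAAA on the sense strand in these 100 bases. The letters TATAA and ATAAA, which overlap in TATAAA, were searched on both strands, and 21.1% of 32851 mouse promoters of the same length held either. The capitals begin 46 bases before the start in Krt36, 33 in Krt84, 29 in Krt13 and 28 in Krt24.

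Libraries differed in how many epithelial cells they gave. Their totals ranged from 46483469 to 102427359 UMIs, and gated cells numbered 2445 and 384 in N, 3124 and 463 in E, 1071 and 828 in Y and 132 and 1896 in EY. All 8 epithelial markers (Epcam, Cdh1, Krt5, Krt14, Krt15, Trp63, Dsp and Perp) were detected in every library, with a summed level of 16478 to 20286 CPM (UMIs per 1000000 UMIs of the gated cells). N2 and EY1 stood apart, because 14 gland or duct markers summed to 6994 and 12324 CPM there, against 30.7 to 1394 in the other 6 libraries. The 6 fibroblast markers summed to 935 and 1126 CPM in N and to 204 and 26.9 in EY, and the 8 immune markers to 56.3 and 139 in N and to 1443 and 461 in EY. Dcn alone gave 921 and 1121 CPM of the fibroblast sum in N and 203 and 25.5 in EY. S100a8, which stressed keratinocytes also express, gave 961 and 417 CPM of the immune sum in EY. The upper limits on genes and UMIs removed 2.51% and 44.3% of otherwise acceptable gated cells in N, 3.91% and 42.8% in E, 35.2% and 41.6% in Y, and 70.0% and 18.5% in EY. The tests on the keratins are therefore given within these limits and without the upper ones, where 13095 cells were gated. Shares of cells, pairs and likeness are given within the limits. Pairs of libraries shared 2 to 19 barcodes, and at most 3 of a pair were gated in both.

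KRT13 is the type I chain of the oral suprabasal pair, and its gene gave the most UMIs of the 10 in every library but EY2. Krt13 stood at 3563 and 1448 CPM in N, 4000 and 2031 in E, 3592 and 3166 in Y, and 1441 and 983 in EY. Both EY libraries lay below every other library, though EY1 only just below N2, and the levels in N, E and Y overlapped. Without the upper limits the replicates came closer, at 4010 and 4030 in N, 4697 and 5459 in E, 4206 and 2741 in Y, and 1587 and 842 in EY. The fitted log2 fold change of EY against N was -1.01 (SE 0.46, adjusted p = 0.186, edgeR) within the limits, which did not pass the test, and -1.66 (SE 0.29, adjusted p = 0.0059) without the upper ones, where Krt13 fell, also when any 1 of the 8 libraries was left out (highest adjusted p = 0.0298). In sums over cells of this kind, fewer cells expressing a gene and less RNA per cell cannot be told apart.

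KRT4, the type II partner, did not follow. Krt4 stood at 1056 and 321 CPM in N, 1387 and 416 in E, 1007 and 2030 in Y, and 741 and 1227 in EY. The N, E and EY ranges overlapped, and the highest library was Y2. Krt4 without the upper limits stood at 1340 and 1656 in N, 1819 and 1718 in E, 2446 and 2367 in Y, and 987 and 1137 in EY, so that Y lay above and EY below all other libraries. The change of Y against N then passed the test (log2 0.72, SE 0.16, adjusted p = 0.0385, edgeR), though not without N1, E1, E2, Y1 or Y2 (highest adjusted p = 0.194), and within the limits it did not (1.15, SE 0.74, adjusted p = 0.723). The change of EY against N did not pass in either fit, and it differed in sign, at 0.59 (adjusted p = 0.613) within the limits and -0.41 (adjusted p = 0.0811) without the upper ones.

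The balance of the pair differed between groups. Krt13 UMIs outnumbered Krt4 UMIs 3.37-fold and 4.51-fold in N, 2.88-fold and 4.89-fold in E, 3.57-fold and 1.56-fold in Y, and 1.95-fold and 0.802-fold in EY. Both EY libraries lay below all N and E libraries, and Y2 lay between them. Without the upper limits the ratios were 2.99 and 2.43 in N, 2.58 and 3.18 in E, 1.72 and 1.16 in Y, and 1.61 and 0.741 in EY, so that Y and EY overlapped and both lay below N and E. A ratio of the UMIs of 2 genes also holds their unequal capture, so only its differences between libraries are described, and these were not tested. The 10 keratins together gave 20.7% and 8.33% of all keratin UMIs in N, 20.6% and 11.1% in E, 18.0% and 20.9% in Y, and 8.89% and 7.43% in EY.

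KRT24 is a type I keratin of stratified epithelia whose role is less well known, and its gene showed the clearest order of groups. Krt24 stood at 110 and 158 CPM in N, 152 and 134 in E, 45.1 and 31.1 in Y, and 16.7 and 1.13 in EY. N and E overlapped, both Y libraries lay below them, and both EY libraries lay below Y. Summed over the libraries of a group, Krt24 was 58.0 times higher in N than in EY (95% counting interval 46.3 to 73.6) and 3.06 times higher in N than in Y (2.89 to 3.25). These intervals cover counting error only, and the replicates differed by more. The summed N level was 7.11 times that of EY1 and 105 times that of EY2, which held 35406074 gated UMIs against 2214797 in EY1.

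Within the limits, neither fall of Krt24 passed the test (EY against N log2 -4.48, SE 1.06, adjusted p = 0.0555; Y against N -1.81, SE 0.86, adjusted p = 0.616, edgeR). Both did without the upper limits, at -6.32 (SE 0.55, adjusted p = 0.00148) and -2.81 (SE 0.44, adjusted p = 0.0162). The first held when any 1 library was left out (highest adjusted p = 0.011), and the second did not without N1 or Y2 (highest 0.0828). Its levels were then 108 and 152 CPM in N, 150 and 147 in E, 22.9 and 13.3 in Y, and 2.65 and 0.798 in EY.

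KRT1 and KRT10 are the epidermal suprabasal pair, and both were scarce in these cells. Krt1 gave 155 and 22 UMIs in N (4.30 and 2.70 CPM), 187 and 24 in E (4.25 and 2.27), 63 and 18 in Y (3.09 and 1.06), and 1 and 3 in EY (0.452 and 0.0847). The EY libraries lay below all others, though on 4 UMIs in all, and the other groups overlapped. The summed level was 37.6 times higher in N than in EY (counting interval 14.4 to 140), and the fitted fall passed the test (log2 -4.72, SE 0.98, adjusted p = 0.046, edgeR; -5.21, SE 0.77, adjusted p = 0.00355 without the upper limits). Within the limits this held only without EY1 when 1 library was left out (highest adjusted p = 0.327), and without the upper limits it held in each of the 8 cases (highest 0.0362).

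Krt10 was more even, at 21.0 and 19.0 CPM in N, 22.3 and 23.4 in E, 14.2 and 16.3 in Y, and 16.7 and 8.61 in EY. Y and EY overlapped each other and lay below N and E. The change of EY against N was -0.72 (SE 0.28, adjusted p = 0.137, edgeR) and passed only without the upper limits (-0.78, SE 0.19, adjusted p = 0.0181), where it was lost without N1 or EY2 (highest 0.116).

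KRT76 is a type II keratin of the suprabasal layers of the mouth, and KRT78 one of the upper layers of stratified epithelia. Krt76 gave 191 and 5 UMIs in N, 74 and 15 in E, 0 and 1 in Y, and 0 and 3 in EY. It stood at 5.29 and 0.613 CPM in N and at 1.68 and 1.42 in E, against 0 and 0.0588 in Y and 0 and 0.0847 in EY, so that both groups with YAP1S127A lay below both without. In EY1 3 UMIs would have been 1.35 CPM, so a level like that of N2 was not detectable there. Krt76 was 166 times higher in N than in Y (counting interval 29.4 to 6573) and 55.5 times higher in N than in EY (18.7 to 272), and N1 gave nearly all of the N UMIs within the limits. In N1 1 gated cell held 115 of the 191 Krt76 UMIs, and 3 gated cells held at least 10. The counting intervals do not cover such gathering of UMIs in few cells.

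In the additive model, in which each transgene is present in 4 of 8 libraries, Krt76 was the member that fell with YAP1S127A (log2 -5.22, SE 0.97, adjusted p = 0.0321, edgeR), a call that held when N2 or Y1 was left out and was lost when any other library was (highest adjusted p = 0.111). It did not pass in EY against N alone (-5.12, SE 1.34, adjusted p = 0.0663) or in Y against N alone (-6.53, SE 1.38, adjusted p = 0.204). Once the upper limits were lifted, N2 rose to 9.07 CPM beside 5.0 in N1, E stood at 1.53 and 2.60, and all 3 changes passed (-6.47, adjusted p = 0.00119; -6.84, adjusted p = 0.0026; and -7.58, adjusted p = 0.0102). The first 2 held when any 1 library was left out, and the last was lost without N1 (adjusted p = 0.0509). In N2 only 2 barcodes that met the gate held at least 10 Krt76 UMIs, both outside the limits.

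Krt78 gave 102 and 64 UMIs in N (2.83 and 7.84 CPM), 412 and 35 in E (9.37 and 3.31), 55 and 30 in Y (2.70 and 1.76), and 0 and 6 in EY (0 and 0.169). Both EY libraries lay below all others, both Y libraries lay just below N, and N and E overlapped. Without the upper limits Y stood at 4.32 and 2.85 CPM and N at 3.34 and 5.47, so that these groups overlapped. N stood 23.5 times above EY (counting interval 10.6 to 65.0), and Krt78 fell in EY against N (log2 -4.96, SE 0.99, adjusted p = 0.0433, edgeR; -4.85, SE 0.52, adjusted p = 0.00197 without the upper limits). When 1 library was left out, the call held only without EY1 within the limits (highest adjusted p = 0.242) and in each of the 8 cases without the upper ones (highest 0.0163).

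KRT32 is a type I hair keratin. Krt32 stood at 51.0 and 15.7 CPM in N, 50.4 and 23.9 in E, 60.8 and 52.7 in Y, and 22.1 and 11.9 in EY. N, E and EY overlapped, and both Y libraries lay just above N1. Without the upper limits the levels were 55.6 and 42.4 in N, 59.1 and 57.7 in E, 46.9 and 44.3 in Y, and 24.3 and 9.60 in EY, so that EY alone was low. The change of EY against N passed only there (log2 -1.48, SE 0.35, adjusted p = 0.0151, against -1.02, SE 0.60, adjusted p = 0.282 within the limits, edgeR), and was lost without N1 (adjusted p = 0.0802).

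**Figure D1:**
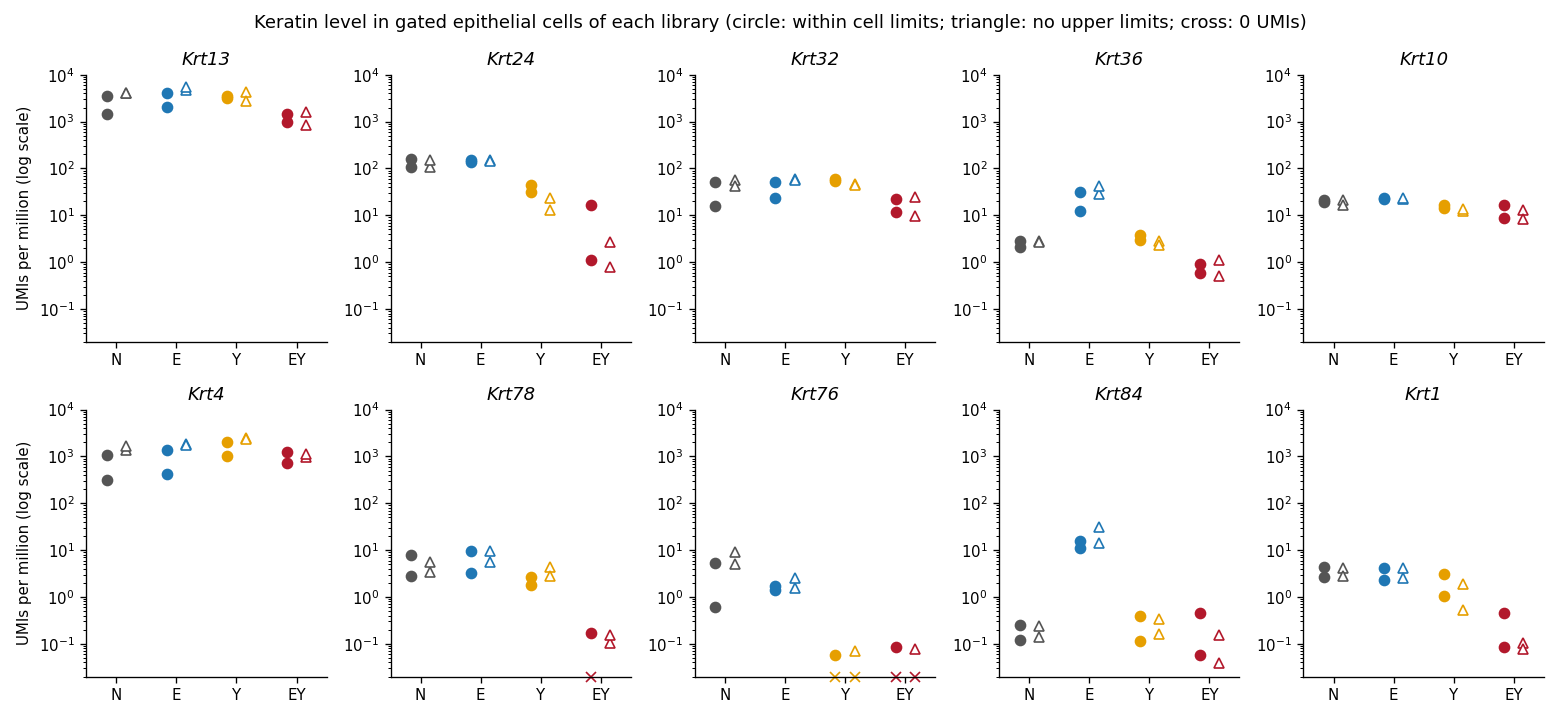
Level of each keratin in the gated cells, in CPM on a log axis, with the libraries of N, E, Y and EY as separate points. Circles are within the cell limits, triangles are without the upper limits, and crosses mark libraries with 0 UMIs. Krt24 steps down from N and E to Y and EY, Krt76 is near 0 in Y and EY, and Krt36 and Krt84 are high in E.

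In EY against N, 2 of the 10 keratins (Krt1 and Krt78) were called within the limits, both lower, where 2.67% of 13723 genes tested were called lower. Leaving out EY1 gave 4 keratins among 3109 called of 14416 genes. Leaving out any other library gave 0 keratins, where no gene at all was called without N2, E1, E2 or EY2 (2505 to 3616 genes had an unadjusted p under 0.05), 3 were without N1, 279 without Y1 and 275 without Y2. DESeq2 called 1994 genes with 4 keratins. With those limits lifted, 8 of 10 were lower (all but Krt4 and Krt84), where 18.7% of 14842 genes were called lower, and without N1 or EY2 there were 6. In Y against N no keratin and no gene was called (0%) by edgeR within the limits, although 1207 genes, Krt76 among them, had an unadjusted p under 0.05 and DESeq2 called 282 genes with 1 keratin. Krt24 and Krt76 were lower without the upper limits (3.25% of genes) and Krt4 was higher (5.59% of genes).

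In E against N no keratin was called within the limits, where 0.0364% of genes were called higher, and Krt36 and Krt84 were called higher without the upper limits, where 0.33% were. Both had an unadjusted p under 0.05 within the limits, among 387 such genes, and DESeq2 called 2 keratins among 89 genes. With YAP1S127A in the additive model 1 keratin (Krt76) was lower within the limits (1.06% of genes), and Krt1, Krt10, Krt24 and Krt76 were lower without the upper ones (19.6% of genes). With E6-E7 in the additive model none was called by edgeR within the limits (0.102% of genes called) or without the upper ones (0.108%), nor by DESeq2, which called 179 genes. At an unadjusted p under 0.05 stood 1 keratin among 1097 genes within the limits and 0 among 1998 without the upper ones.

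The interaction asks whether one transgene acts differently beside the other. Within the limits 0% of genes and no keratin were called by edgeR, with 1038 genes and 5 keratins at an unadjusted p under 0.05, and DESeq2 called 35 genes with 2 keratins. Krt36 was called lower without the upper limits (log2 -5.37, SE 0.47, adjusted p = 0.0469), where 0.0202% of genes were, and this held only without Y1 or EY1 when 1 library was left out (highest adjusted p = 0.237). The fitted changes of all groups against N share the same N libraries.

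**Figure D2:**
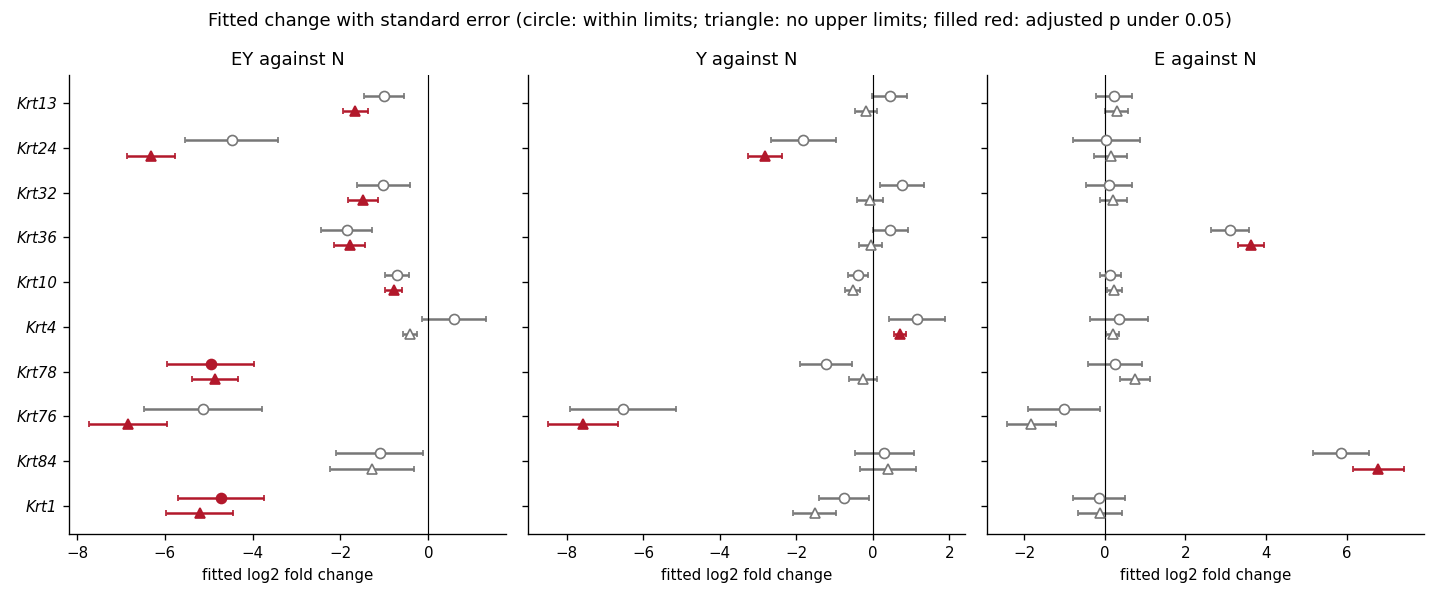
Fitted log2 fold change of each keratin against N for EY, Y and E, with its standard error. Circles are within the cell limits, triangles are without the upper limits, and filled red symbols have an adjusted p under 0.05 (edgeR). The standard errors are smaller without the upper limits for each keratin in EY against N, and Krt4 is the only keratin whose symbols stand on opposite sides of 0 in that panel.

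KRT36 and KRT84 are a type I and a type II keratin of the hair-type group found in filiform papillae. Krt36 gave 100 and 17 UMIs in N (2.77 and 2.08 CPM), 1378 and 131 in E (31.4 and 12.4), 77 and 51 in Y (3.78 and 2.998), and 2 and 21 in EY (0.903 and 0.593). Both E libraries lay above all others and both EY libraries below, and N lay just below Y. E stood 10.5 times above N in summed UMIs (counting interval 8.67 to 12.7).

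Krt84 gave 9 and 1 UMIs in N (0.249 and 0.123 CPM), 679 and 115 in E (15.4 and 10.9), 8 and 2 in Y (0.393 and 0.118), and 1 and 2 in EY (0.452 and 0.0565). E was far above the other groups, which overlapped and stood on 1 to 9 UMIs a library, and its summed level was 64.4 times that of N (counting interval 34.8 to 135). The changes of E against N did not pass within the limits (Krt36 log2 3.10, SE 0.47, adjusted p = 0.149; Krt84 5.87, SE 0.70, adjusted p = 0.109, edgeR). They passed without the upper limits (Krt36 3.64, SE 0.32, adjusted p = 0.0055; Krt84 6.79, SE 0.63, adjusted p = 0.00664), and neither passed there when either N library was left out. Krt36 also fell in EY against N without the upper limits (-1.79, SE 0.35, adjusted p = 0.00845), a call lost without EY2 (adjusted p = 0.0514), and did not pass within them (-1.86, SE 0.58, adjusted p = 0.0923).

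A handful of cells carried the E signal. In E1, 7 gated cells with at least 10 Krt84 UMIs held 96.8% of Krt84 and 84.2% of Krt36 UMIs of the gate, and in E2 1 such cell held 93.9% and 77.1%. Outside them Krt84 stood at 0.502 CPM in E1 and 0.663 in E2, and Krt36 at 4.98 and 2.84. In the 7 cells of E1, Krt84 stood at 4674 CPM, its hair-keratin relative Krt35 at 1259 against 1.14 in the other gated cells, and Hoxc13, a homeobox regulator of hair keratins, at 235 against 2.47. The basal keratins were lower there, Krt14 at 2568 against 10135 CPM and Krt5 at 491 against 3583. Krt24, Krt76 and Krt1 gave 0 UMIs in these 7 cells, and Krt32 stood at 277 CPM against 49.7. Without the upper limits, an E2 cell of 40212 UMIs was also gated. It held 855 of the 1038 Krt36 and 678 of the 796 Krt84 UMIs gated in E2. The E2 levels in the fit that passed thus rested mainly on 1 cell.

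Cells of this kind were mostly outside the gate. Over all 42550 barcodes, 82 held at least 10 UMIs of Krt36 or Krt84, of which 15 had an Epcam UMI and no Ptprc UMI, 3 had a Ptprc UMI and 64 had neither. There were 10 and 13 in N, 33 and 13 in E, 9 and 4 in Y, and 0 and 0 in EY. That is 0.169% (exact interval 0.0813 to 0.311) and 0.333% (0.177 to 0.568) of the barcodes in N, 0.463% (0.319 to 0.649) and 0.446% (0.238 to 0.761) in E, 0.111% (0.0506 to 0.21) and 0.0885% (0.0241 to 0.227) in Y, and 0 of 4074 and 0 of 5960 in EY, which allow up to 0.0736% and 0.0503%. The E shares were above the N shares and the Y shares below them, but of the pairs of an E and an N or an N and a Y library only E1 and N1 had intervals that did not overlap. The barcodes also include immune and other cells, whose numbers differ between libraries and enter these shares.

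The hair-type pair was found together in these cells. Of 71 barcodes with at least 10 Krt36 UMIs 68 held Krt84, and of 67 with at least 10 Krt84 UMIs 64 held Krt36. Krt35 was found in 56 of the 82 barcodes and Hoxc13 in 49. The highest cell held 855 Krt36 and 678 Krt84 UMIs. These barcodes were shallow, with a median of 6350 UMIs and 1632.5 genes, and 31 of 82 fell under the limit of 1000 genes. Their depth differed between groups, with medians of 4701.5 and 750 UMIs in N, 9376 and 15342 in E, and 3054 and 4472 in Y. How far depth enters the differences between groups in Krt36 and Krt84 was not tested.

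**Figure D3:**
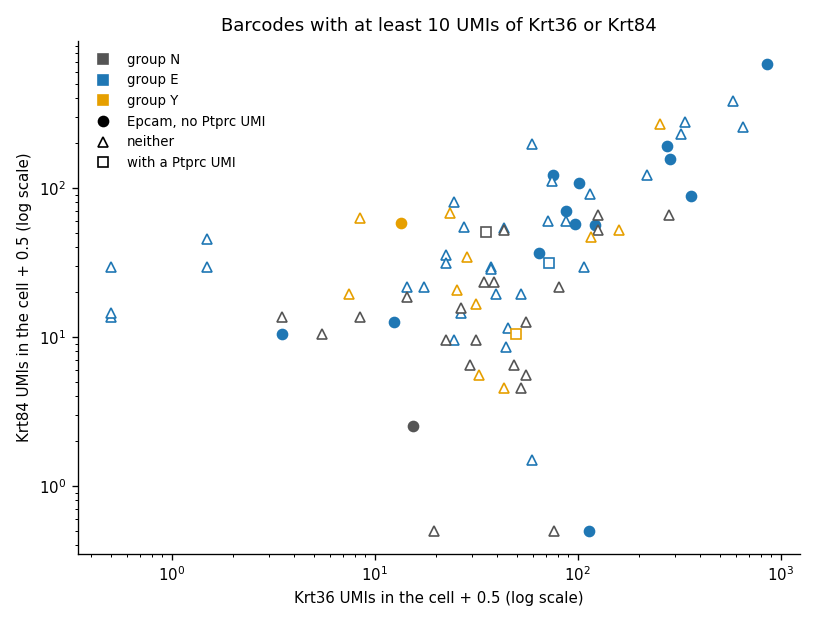
Krt36 against Krt84 UMIs, each plus 0.5 on log axes, in the 82 barcodes with at least 10 UMIs of either. Colours give the group and symbols the gate, with filled circles for barcodes with Epcam and no Ptprc UMI, triangles for neither and squares for barcodes with Ptprc. Most points rise along the diagonal, N, E and Y are all present, EY has none, and 64 of the 82 lie outside the gate for want of an Epcam UMI.

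The gate also held unequal parts of the other keratins. It took in 56.5% of the Krt13 UMIs of N1 but 10.0% of those of N2, and 64.9% of those of EY2 but 7.96% of those of EY1. For Krt76 the barcodes with neither an Epcam nor a Ptprc UMI held 75.7% and 66.4% of the UMIs in N, and for Krt84 95.7% and 74.7%. In those barcodes Krt76 stood at 35.2 and 76.7 CPM in N, 5.32 and 16.1 in E, 4.41 and 1.09 in Y, and 1.17 and 0.189 in EY. Both N libraries lay above E there, and E above Y and EY, an order like that inside the gate without its upper limits.

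Detection was compared after each gated cell was thinned to 2000 UMIs, which left out 1 cell in N1 and 1 in EY1. Krt13 was found in 61.0% and 50.5% of cells in N, 60.8% and 58.3% in E, 70.2% and 62.9% in Y, and 35.9% and 39.5% in EY. Krt4 was found in 28.1% and 21.9% in N, 35.5% and 23.1% in E, 34.9% and 56.4% in Y, and 22.9% and 49.1% in EY. Fewer EY cells thus held Krt13 than in any other library, while the share with Krt4 differed widely between the replicates of Y and of EY. In the same libraries 6.21% to 31.5% of Ptprc cells without Epcam held Krt13 and 4.79% to 20.1% held Krt4, at the same thinned depth. Before thinning the medians were 13017 to 23960 UMIs in gated cells and 3203 to 10646 in Ptprc cells. In every library the gated share was the higher one for both genes.

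Krt24 was found in 13.1% and 13.5% of gated cells in N, 14.3% and 13.8% in E, 4.76% and 3.74% in Y, and 3.82% and 0.158% in EY, against 0% to 2.59% of Ptprc cells. Krt32 was found in 7.45% and 3.12% in N, 6.98% and 4.75% in E, 9.62% and 8.57% in Y, and 3.82% and 2.58% in EY, and Krt10 in 3.93% and 4.69%, 4.29% and 6.26%, 2.99% and 1.45%, and 1.53% and 1.48% of the same groups. For Krt24 and Krt10 both Y and both EY libraries lay below all N and E libraries. The Krt24 share of EY1 lay between those of Y1 and Y2, so by share of cells only EY2 lay below Y. In Y2 the share with Krt10 (12 cells, exact interval 0.751% to 2.52%) was below that in Ptprc cells (1.65%), which lay within its interval. The share alone thus does not set gated cells of Y2 apart for Krt10. Its level there was 16.3 CPM in gated cells and 5.59 in Ptprc cells.

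Krt1, Krt36, Krt76, Krt78 and Krt84 were found in at most 1.44% of thinned cells. For Krt36 and Krt84 the share in E1 (0.864% and 0.256%) was no higher than in its Ptprc cells (0.88% and 0.704%). The share alone thus does not set gated cells of E1 apart. Its positive gated cells held a mean of 5.4 Krt36 and 8.6 Krt84 UMIs after thinning. In E2 both shares were higher in gated cells (0.648% and 0.432%) than in Ptprc cells (0.36% and 0.24%), and the share with Krt36 was also the higher one in N1, N2, Y1, Y2 and EY2. For Krt84 the gated share was no higher in N1 (0.0409% against 0.199%), N2 (0% against 0.177%) and Y1 (0% against 0.146%). In N Krt84 stood at 0.249 and 0.123 CPM in gated cells, below 0.815 and 0.672 in Ptprc cells. For Krt1, Krt76 and Krt78, 0 of 131 thinned cells in EY1 allows a share of up to 2.29%, which exceeds every share seen in N, so EY1 could not show a loss of cells. For Krt1 and Krt78, 0 of 1896 cells in EY2 allows 0.158%, below the 0.777% and 0.45% of N1.

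**Figure D4:**
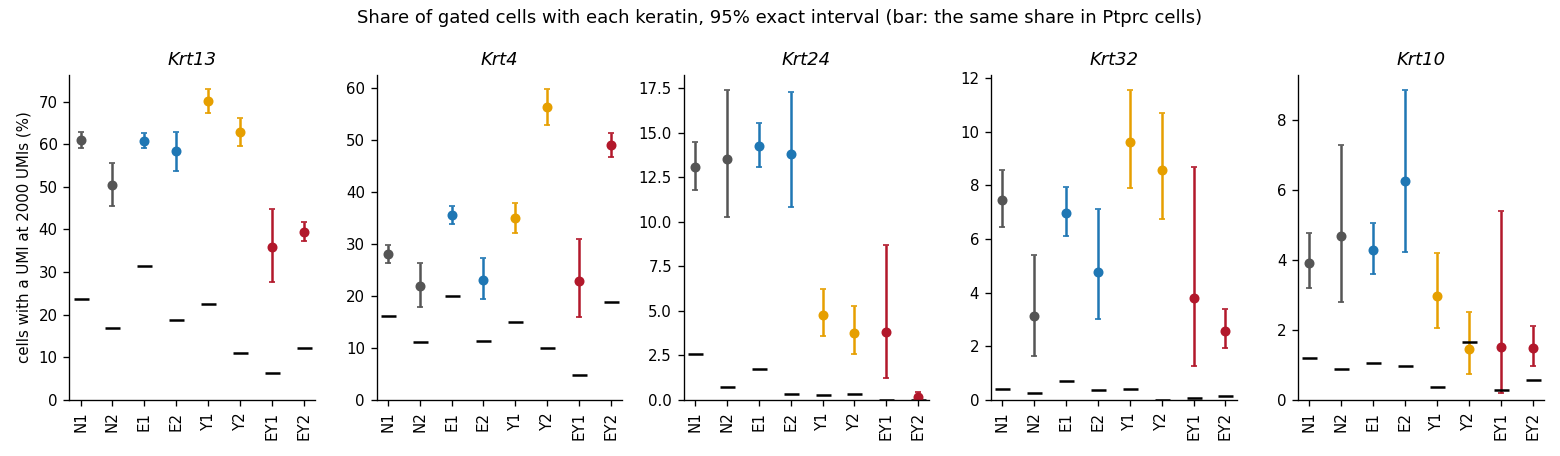
Share of gated cells with at least 1 UMI of Krt13, Krt4, Krt24, Krt32 and Krt10 in each library, in percent, after thinning to 2000 UMIs, with exact 95% intervals that cover counting error only. Black bars give the share in Ptprc cells of the same library. Krt13 is lowest in EY, Krt24 is lowest in EY2 with EY1 between Y1 and Y2, and Krt4 spans 22.9% to 49.1% within EY.

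Krt13 and Krt4 were found in the same cells more often than the product of their shares in each library would give. At 2000 UMIs 2900 cells held both against 2133 expected, a ratio of 1.36, and the ratio was above 1 in 8 of 8 libraries. Across cells of a library Pearson's r of their log levels ran from 0.559 in N2 to 0.698 in N1. All such correlations are across cells that share a library and its free RNA, and are given as descriptions.

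Krt32 went with this pair. It was found with Krt13 in 598 cells against 401 expected (ratio 1.49) and with Krt4 in 444 against 237 (1.87), and both ratios were above 1 in all 7 libraries with at least 2 cells expected. Krt24 did not. It was found with Krt4 in 171 cells against 312 expected (0.547) and with Krt13 in 511 against 588 (0.869, the lowest of 9 settings, which reached 0.979), both below 1 in all 6 libraries with enough cells. Within every library Pearson's r of Krt4 with Krt24 was below 0, from -0.222 in E2 to -0.0611 in EY2. For Krt13 with Krt24 it ran from -0.132 in E2 to 0.00855 in E1.

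Krt24 was found instead with Krt78, in 28 cells against 9.48 expected (ratio 2.95, and 1.73 to 6.62 over 9 settings), with both in 7 cells of N1, 15 of E1, 2 of E2, 2 of Y1 and 2 of Y2. Krt36 and Krt84 shared 7 thinned cells, 6 in E1 and 1 in E2, where 0.0858 were expected. Krt36 and Krt32 shared 9 against 3.49, and Krt84 and Krt32 shared 5 against 0.728. Krt76 and Krt1 shared 3 cells (1 in N1 and 2 in E1) against 0.0979. The epidermal pair Krt1 and Krt10 shared 2 cells against 2.37, and was thus not found together more often than its shares give. Counts under 10 are too few for a ratio between libraries.

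**Figure D5:**
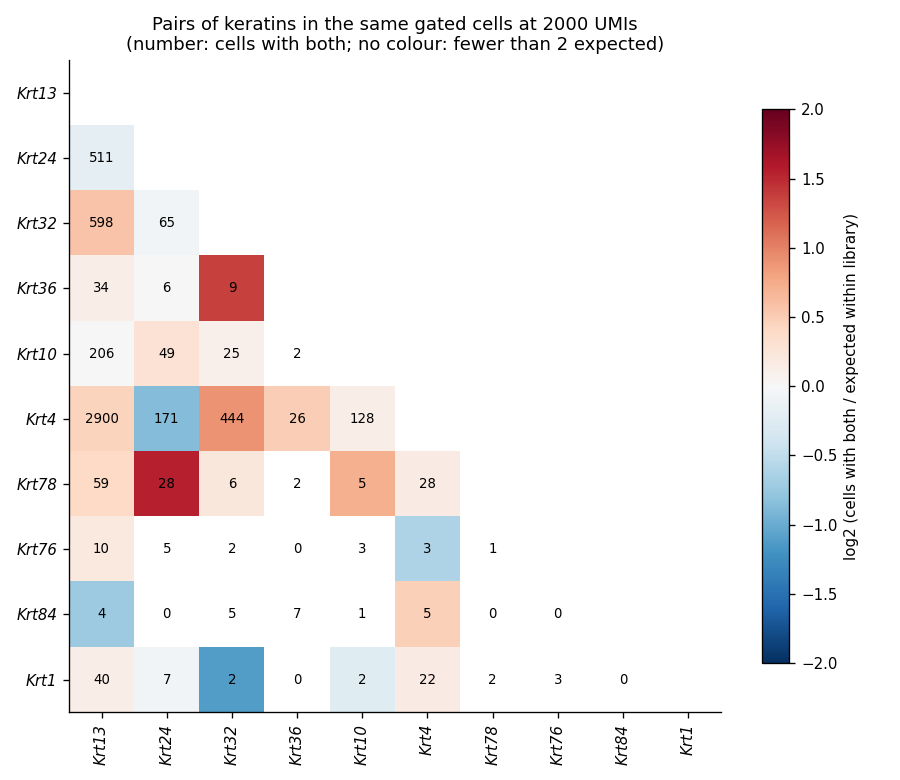
Pairs of keratins in the same gated cells at 2000 UMIs. Numbers are cells with both summed over 8 libraries, and colour is the log2 ratio to the number expected within libraries, left blank below 2 expected cells. Krt13, Krt4 and Krt32 are red with each other, and Krt24 is blue with Krt4 and Krt13 and red with Krt78.

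Most cells held few of the 10 keratins. At 2000 UMIs none was found in 26.6% and 33.9% of gated cells in N, 24.7% and 28.5% in E, 22.0% and 24.0% in Y, and 51.9% and 39.5% in EY. At least 3 were found in 4.17% to 10.0% of cells in N, E and Y and in 2.29% and 2.16% in EY. Leaving Krt13 and Krt4 aside, at least 1 of the other 8 was found in 21.6% to 25.7% of N and E cells, 17.7% and 14.3% of Y cells, and 9.16% and 4.48% of EY cells. No EY cell held 2 of these 8.

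The keratins also differed in the company they kept. Cells with Krt24 held the stress keratin Krt6a in a median of 97.5% against 73.1% of cells without it, higher in 6 of 6 libraries, and Krt16 in 28.8% against 11.2%, also in 6 of 6. Cells with Krt4 held Krtdap, a gene of differentiating keratinocytes, in 37.8% against 15.02% (8 of 8 libraries), and cells with Krt32 in 41.7% against 18.3% (7 of 7). Cells with Krt78 could be compared in 2 libraries, with only 11 such cells in N1 and 45 in E1. They held the basal keratin Krt15 in 18.2% and 44.4% against 78.3% to 85.4%. Sbsn, another differentiation gene, was held in 40.0% and 72.7% against 14.1%, and the 18.2% and the 72.7% are from N1.

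The genes most like each keratin across cells were taken by the median of Pearson's r over libraries, from 12541 detected genes with the 10 keratins themselves left out, and differed between the keratins. The pair Krt36 and Krt84, left out for that reason, had r = 0.81 with each other in E1. Mt4, a metallothionein of stratified epithelia, was, of the genes outside the 10, most like Krt13 (r = 0.509, 8 libraries) and Krt32 (0.422), and Ly6d, a surface protein of squamous cells, most like Krt4 (0.438). For Krt24 they were Fam25c (0.502), Krt6a (0.486) and the transcription factor Maf (0.436), over 7 libraries. For Krt84 they were Krt35 (0.743), Hoxc13 (0.392) and Homer2 (0.287), in E1 alone. For Krt78 they were Atg9b (0.35), Slurp1 (0.334) and Cst6 (0.328). For Krt36, Krt76, Krt1 and Krt10 no gene outside the 10 had a median r above 0.131.

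Other keratins and keratinocyte genes were read in the same fit from lists chosen with earlier results of these data known. Their CPM, here and in the rest of the list results, use library totals scaled by TMM, the normalization of the fit. In EY against N within the limits, 1 of 4 stress keratins rose, Krt17 (1356 and 1258 CPM in N, 5250 and 9195 in EY; log2 2.47, SE 0.34, adjusted p = 0.0255, edgeR), and all 4 rose without the upper limits. None of the 3 basal and 6 simple-epithelial keratins passed within the limits, and 1 of 3 and 2 of 6 were lower without the upper ones, as were 4 of 11 other keratins tested there, of which 1 was higher. Over all genes 2.46% were higher and 2.67% lower within the limits, and 19.1% and 18.7% without the upper ones. Since no gene was called without N2, E1, E2 or EY2 within the limits, each call there on Krt17 and on the genes named after it was lost in those cases. The median log2 change over the 4 stress keratins was 1.89, against -0.05 over all genes tested.

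Of 25 differentiation and envelope genes tested 3 rose and 2 fell. Those that rose included Crct1, a small cornified-envelope protein (0.738 and 8.24 CPM in N, 275 and 571 in EY; log2 6.77, SE 1.34, adjusted p = 0.0428, edgeR), and Sprr3, a cross-linked envelope precursor (log2 4.94, adjusted p = 0.0349). Those that fell were Calm4, a calmodulin-like protein of keratinocytes (352 and 313 CPM in N, 49.5 and 10.8 in EY; log2 -3.57, adjusted p = 0.044), and Dsg1a, a desmosomal cadherin of upper layers (log2 -3.65, adjusted p = 0.0461). Crct1 stood at 275 and 1230 CPM in Y as well, and at 1.01 and 0.363 in E.

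Of 29 regulators of differentiation and papilla fate 6 fell and none rose, with a median change of -0.49. Among them Maf, one of the 3 genes most like Krt24 across cells, stood at 60.8 and 63.8 CPM in N, 73.6 and 94.5 in E, 50.2 and 28.6 in Y, and 16.5 and 4.01 in EY (log2 -2.90, SE 0.63, adjusted p = 0.0499, edgeR). Both Y libraries lay below N, and both EY libraries below Y, as for the levels of Krt24. Both E libraries lay above N for Maf, whereas N and E overlapped for Krt24. Fam25c and Krt6a, which ranked above Maf in likeness to Krt24, did not have that order of N, Y and EY. Fam25c stood at 144 and 198 CPM in N and 156 and 94.8 in EY (adjusted p = 0.275, edgeR). Krt6a stood at 1716 and 2203 CPM in N and 2579 and 3747 in EY. Other regulators that fell were Msx2, a homeobox gene of skin appendages (log2 -4.65, adjusted p = 0.0313), Notch1, a receptor that drives keratinocytes out of the basal layer (-1.29, adjusted p = 0.026), and Barx2, a homeobox gene of oral epithelium (-1.18, adjusted p = 0.0255). Of 16 keratin partners and processing proteins 1 fell, Fam83g (-0.98, adjusted p = 0.0428). Lifting the upper limits gave 8 higher and 5 lower of 26 differentiation genes, 2 and 14 of 29 regulators, and 3 and 6 of 18 partners, beside the 19.1% and 18.7% of all genes.

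Markers of other cell types were read in the same comparison. Of the immune markers S100a8, a neutrophil gene that stressed keratinocytes also express, was higher in EY (1.91 and 9.49 CPM in N, 950 and 449 in EY; log2 7.07, SE 1.14, adjusted p = 0.0336, edgeR), and no other of the 7 tested passed. No fibroblast, gland or taste bud marker passed within the limits, and without the upper ones 5 of 5 fibroblast, 3 of 8 taste bud and 2 of 13 gland markers were lower in EY, where 18.7% of all genes were, so that the gland count was no more than that share gives. With gland or duct cells removed and no upper limits, 8 of 10 keratins were called lower, where 18.1% of 14289 genes were, and without N2, EY1 and the upper limits there were also 8, where 1702 of 15484 genes were. Within the limits these counts were 3 (7.66% of genes) and 2 (1.93%). The part of immune and fibroblast RNA in the keratins' changes was not tested.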

How the data were processed

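Sorted viable cells of mouse tongue epithelium were profiled by 10x 3′ droplet sequencing in 8 libraries. The authors made the deposited UMI counts per gene and barcode with Cell Ranger on mm10, per the labels. The labels and the study's methods name different kit versions. Groups came from the labels, each library was 1 replicate, and where N2 pools animals its spread is not that of single animals. The 10 keratins, the gene lists and the tests were chosen with earlier results of these data known.

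Cells were kept under the study's limits (1000 to 5500 genes, no more than 30000 UMIs, a mitochondrial share of up to 7%) and gated on at least 1 Epcam and 0 Ptprc UMIs. Counts were summed per library and tested with edgeR 4.0.16 in R 4.3.3 (filterByExpr, TMM, quasi-likelihood F test on all 8 libraries), with a mean per group or with both transgenes as additive terms, and with Benjamini-Hochberg adjustment over all genes tested. Genes with an adjusted p under 0.05 were called. CPM are UMIs per 1000000 gated UMIs, and those given beside the fits of list genes use TMM-scaled totals. Scripts were tested on simulated data. Cells were thinned to 2000 UMIs (seed 1) for shares and pairs, with exact Clopper-Pearson 95% intervals, and a count of 0 is given the limit of 3 counts. Named genes were all 10 keratins, at most 4 called genes per list (the largest and smallest changes in EY against N) and the 3 genes most like each keratin. Others named, such as Krt35 in rich cells, were chosen after their values were seen. Alternatives were cell limits, gates, DESeq2 1.42.0, filters, thinning, Scrublet (scanpy 1.11.5) and leaving out libraries. Scrublet marked 0.014% of E1 and had not worked there. It also marked only 0.0736% of EY1, and at most 2.08% of any library, against an expected rate of 0.06.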

Additional observations from a re-analysis of the deposited data

Results flagged for a closer look

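An interaction of the transgenes on Krt36 was called in some settings only. Without the upper limits on genes and UMIs the interaction of E6-E7 and YAP1S127A was -5.37 on the log2 scale (SE 0.47, adjusted p = 0.0469, edgeR). E stood at 28.7 and 41.5 CPM, against 2.76 and 2.71 in N, 2.81 and 2.32 in Y, and 1.12 and 0.506 in EY. Within the limits it was -5.42 (adjusted p = 0.493) and most E UMIs came from 8 cells. Once the upper limits were lifted, 1 E2 cell held 855 of the 1038 Krt36 UMIs gated in E2. Without the upper limits the call held only without Y1 or EY1 when 1 library was left out (highest adjusted p = 0.237).

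Barcodes with neither an Epcam nor a Ptprc UMI, which enter none of the tests, held more of some keratins than the same barcodes in N. Krt36 stood there at 73.9 and 362 CPM in E, against 49.9 and 69.6 in N. Krt84 stood at 63.1 and 253 in E, against 15.1 and 35.6 in N. Krt32 stood at 63.9 and 55.7 in Y, against 36.2 and 23.4 in N, and Krt78 at 14.22 and 14.27 in Y, against 8.89 and 10.1 in N. These differences were not tested, and which cell types fill these barcodes was not determined.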

How the results depend on the processing

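The limits on genes and UMIs changed the most, and the cause was not tested. Keratins called in EY against N were 2 within the limits, 8 without the upper limits, with no cell filter, and in each setting without upper limits that also removed gland cells or N2 and EY1, 6 without a low-count filter, 4 with DESeq2, 1 with Cdh1 in place of Epcam and 0 with at least 2 Epcam UMIs. Over all genes 366 were lower within the limits, 2773 without the upper ones, 1135 without a low-count filter, 835 with DESeq2, 345 with Cdh1 and 105 with at least 2 Epcam UMIs. Leaving out each library gave 0 to 4 (4 without EY1, 0 without any other) within the limits and 6 to 8 without the upper ones (6 without N1 or EY2). In Y against N they were 0, then 3 without upper limits, without any cell filter or also without N2 and EY1, 2 with gland cells also removed, 1 without a low-count filter and 1 with DESeq2, and 0 to 3 when libraries were left out (0 without N1). In E against N they were 0, then 2 without upper limits (gland cells removed or not), cell filter or low-count filter and with DESeq2, 1 with gland cells removed within the limits, and 0 to 2 when libraries were left out (0 without either N library). For YAP1S127A they were 1, then 4 without upper limits or cell filter and with DESeq2, 6 with gland cells also removed, 3 without a low-count filter, 2 after thinning and 0 with Cdh1 or at least 2 Epcam UMIs. Leaving out libraries gave 0 to 2 within the limits, 0 without N2 and EY1, and 3 to 7 without the upper limits. For the interaction they were 0, then 1 without upper limits (gland cells removed or not) or cell filter, 2 without a low-count filter, 2 with DESeq2, and 0 to 2 when libraries were left out. For E6-E7 they were 0 in every setting. Over all genes, 1.06% were called lower with YAP1S127A within the limits and 19.6% without the upper ones. In Y against N 0% were called, then 3.25% lower and 5.59% higher. In E against N 0.0364% were called higher, then 0.33%, and in the interaction 0% were called, then 0.0202% lower. Where no share of all genes is given, the count is not read as a result about the keratins.

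Krt4 in EY against N changed sign, to -0.41 without upper limits, -0.38 without a cell filter, -0.34 with gland cells also removed and -0.04 without N2 within the limits. It ran from -0.57 to 1.67 over all settings that left out libraries (-0.07 without N2, EY1 and the upper limits). Over the same settings Krt84 ran from -2.34 to 1.02 (positive without EY2) and Krt32 from -2.37 to 0.057 (positive without N1). The ratio for Krt13 with Krt4 ran from 1.06 to 1.87 over 9 settings and that for Krt24 with Krt4 from 0.296 to 0.812. No paired analysis was possible because the labels give animal numbers that no groups share. With 132 gated cells, EY1 limits what can be seen of scarce keratins.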
